A study of Homo sapiens with 16 samples.

Results

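The genes described here are regulators of the epithelial and the mesenchymal state: the zinc-finger and helix-loop-helix repressors ZEB1, ZEB2, SNAI1, SNAI2 and TWIST1, the epithelial factors GRHL2 and OVOL1, and the epithelial splicing factors ESRP1 and ESRP2. They were chosen by symbol from the 4 deposited expression tables. Of the 9 regulators listed, 6 had a row in these tables, among 18227 genes in all, and GRHL2, OVOL1 and ESRP2 were not analysed here. The 6 were ZEB1, ZEB2, SNAI1, SNAI2, TWIST1 and ESRP1.

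In epithelial cells, E-cadherin, claudins and polarity proteins hold neighbouring cells together. The ZEB, SNAI and TWIST proteins are transcription factors that switch such genes off during epithelial-mesenchymal transition, a change towards a migratory state that is studied in lung carcinoma for its part in invasion. ZEB and SNAI proteins read short E-box sequences in promoters and bring in histone-modifying corepressors, while GRHL2 and OVOL1 oppose them, and ESRP1 and ESRP2 set the epithelial splice forms of genes such as FGFR2 and CD44.

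The RNA came from cultures of A549 and H2023, which are lung cancer cell lines, and each line was either wild type or labelled as ZC3H12A knockout. The ZC3H12A product, Regnase-1, is an endoribonuclease that degrades selected mRNAs. Both genotypes of the 2 lines had 3 days of normal culture or 7 days of oncosphere culture, a condition that enriches stem-like cells, which gave 8 groups of 2 libraries and 16 libraries in all. The title of each library labelled knockout names 1 clone per line, so a difference from wild type may come from the edit or from other traits of that clone, which cannot be told apart, and the p-values measure the spread between cultures or preparations that may be technical. Culture and days of growth change together and cannot be told apart.

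Expression was given as TPM, a transcript abundance scaled to the library and to transcript length, in which form the sequencing depth of a library is not kept and is unknown. A library had 13824 to 14508 genes at 1 TPM or more. The r of replicate libraries over genes was 0.983 to 0.992. The mitochondrial share of TPM was 10.3% to 18.7% under normal and 19.5% to 25.6% under oncosphere conditions. The targeted mRNA, ZC3H12A, was at 30.7 and 34.9 TPM in wild type and 16.9 and 19.9 TPM under the knockout label in A549 normal culture. In the other 3 comparisons it was higher in both libraries labelled knockout than in both wild-type libraries. The mRNA level does not show whether the protein was lost, and the protein was not measured here. The groups are therefore called by their label throughout. Of 6 epithelial markers, CDH1, KRT7, KRT8 and KRT18 stood at 12.7 TPM or more in all 16 libraries. The others did not, with EPCAM at 0.37 to 51.02 TPM and KRT19 at 0.29 to 797.79 TPM. EPCAM reached 1 TPM in 13 libraries and KRT19 in 14. Of 7 fibroblast markers 4 were measured, COL1A1 at 1.11 to 8.46 TPM, LUM at 0 to 3.53 TPM, PDGFRA at up to 0.52 TPM and PDGFRB at up to 0.65 TPM.

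Promoter sequences are shown for the members with an entry in the RefSeq promoter table (GRCh38.p14, 250 bases before to 50 bases after a start) and for the epithelial genes whose promoters hold most E-boxes. The motif searched was CACCTG, bound by ZEB and SNAI proteins, on both strands, so that it also reads CAGGTG; the pair cannot overlap each other. It stands in capitals. ZEB1, which spans 31318495 to 31529814 on the + strand of chromosome 10, has 7 start windows in that table, and the one with most boxes is chr10:31318966-31319265 on the + strand. ZEB2 lies on the - strand of chromosome 2, from 144364364 to 144524583, with the window chr2:144520070-144520369. CLDN7, a tight-junction claudin, has chr17:7262429-7262728 on the - strand, and CRB3, a Crumbs polarity protein, has chr19:6464021-6464320 on the + strand.
ZEB1: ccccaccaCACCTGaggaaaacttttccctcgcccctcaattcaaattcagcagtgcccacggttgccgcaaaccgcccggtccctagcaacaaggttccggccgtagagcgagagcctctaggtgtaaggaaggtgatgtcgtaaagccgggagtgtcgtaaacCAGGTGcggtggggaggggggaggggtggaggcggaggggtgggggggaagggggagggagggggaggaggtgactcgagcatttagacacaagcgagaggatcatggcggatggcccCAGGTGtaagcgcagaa
ZEB2: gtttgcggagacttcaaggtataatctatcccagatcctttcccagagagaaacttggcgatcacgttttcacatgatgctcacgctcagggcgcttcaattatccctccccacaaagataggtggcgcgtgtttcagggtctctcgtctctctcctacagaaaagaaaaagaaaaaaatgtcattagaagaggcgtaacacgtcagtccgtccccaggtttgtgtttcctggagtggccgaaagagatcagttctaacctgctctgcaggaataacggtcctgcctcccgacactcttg
CLDN7: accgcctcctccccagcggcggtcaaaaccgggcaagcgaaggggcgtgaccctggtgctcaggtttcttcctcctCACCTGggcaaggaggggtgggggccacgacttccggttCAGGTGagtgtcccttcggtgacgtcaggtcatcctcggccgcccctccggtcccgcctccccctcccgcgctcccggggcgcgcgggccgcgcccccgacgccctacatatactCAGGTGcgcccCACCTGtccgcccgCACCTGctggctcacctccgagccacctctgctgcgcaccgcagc
CRB3: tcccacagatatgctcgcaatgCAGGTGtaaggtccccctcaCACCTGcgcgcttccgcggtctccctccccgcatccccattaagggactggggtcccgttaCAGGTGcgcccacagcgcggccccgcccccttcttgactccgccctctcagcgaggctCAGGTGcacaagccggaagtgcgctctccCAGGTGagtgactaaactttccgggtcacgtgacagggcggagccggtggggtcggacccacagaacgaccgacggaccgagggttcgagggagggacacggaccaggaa

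The ZEB1 window holds 3 boxes, at bases 9, 166 and 284 counted from its 5′ end, and the ZEB2 window holds 0. The other ZEB1 windows hold 1 or 0, so the one with most boxes is set beside the only window of ZEB2. The windows shown for CLDN7 and CRB3 each hold 5, and another window of CLDN7, chr17:7263164-7263463, holds 0. Among all 35116 windows, 20.6% held at least 1 box, and among 27305 genes 24.1% had one in any window. Of the 30 epithelial genes listed as repressed by ZEB, SNAI or TWIST factors, 16 had a window and 13 of these held a box, and 4 of the 16 held 3 or more, against 0.762% of all genes. The list was written from genes known as targets of these factors, so the share describes the list and is no independent evidence. Of 21 mesenchymal genes with a window, 3 held a box. A match is a string of letters, not a bound site.

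ZEB1 was the regulator with the highest mean level in all 8 groups. It ranged from 6.06 to 20.11 TPM with a median of 11.98 TPM. TWIST1, a helix-loop-helix factor of mesoderm, ranged from 1.53 to 11.23 TPM and SNAI1 (Snail) from 1.36 to 19.91 TPM, and both were above 1 TPM in all 16 libraries. SNAI2 (Slug) ran from 0.16 to 14.08 TPM and reached 1 TPM in 9 libraries, and ZEB2 ran from 0.04 to 4.45 TPM and reached it in 6. ESRP1 was listed between 0 and 0.64 TPM and reached 1 TPM in 0 of 16 libraries. In the authors' deposited tables its mean normalized count lay between 4.05 and 17.1. SNAI1 lies on chromosome 20 (49982999 to 49988886, + strand), TWIST1 on chromosome 7 (19020991 to 19117672, - strand), SNAI2 on chromosome 8 (48917604 to 48921740, - strand) and ESRP1 on chromosome 8 (94641074 to 94707466, + strand). All 6 are protein-coding, and gene positions are those of GENCODE on GRCh38.

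**Figure D1:**
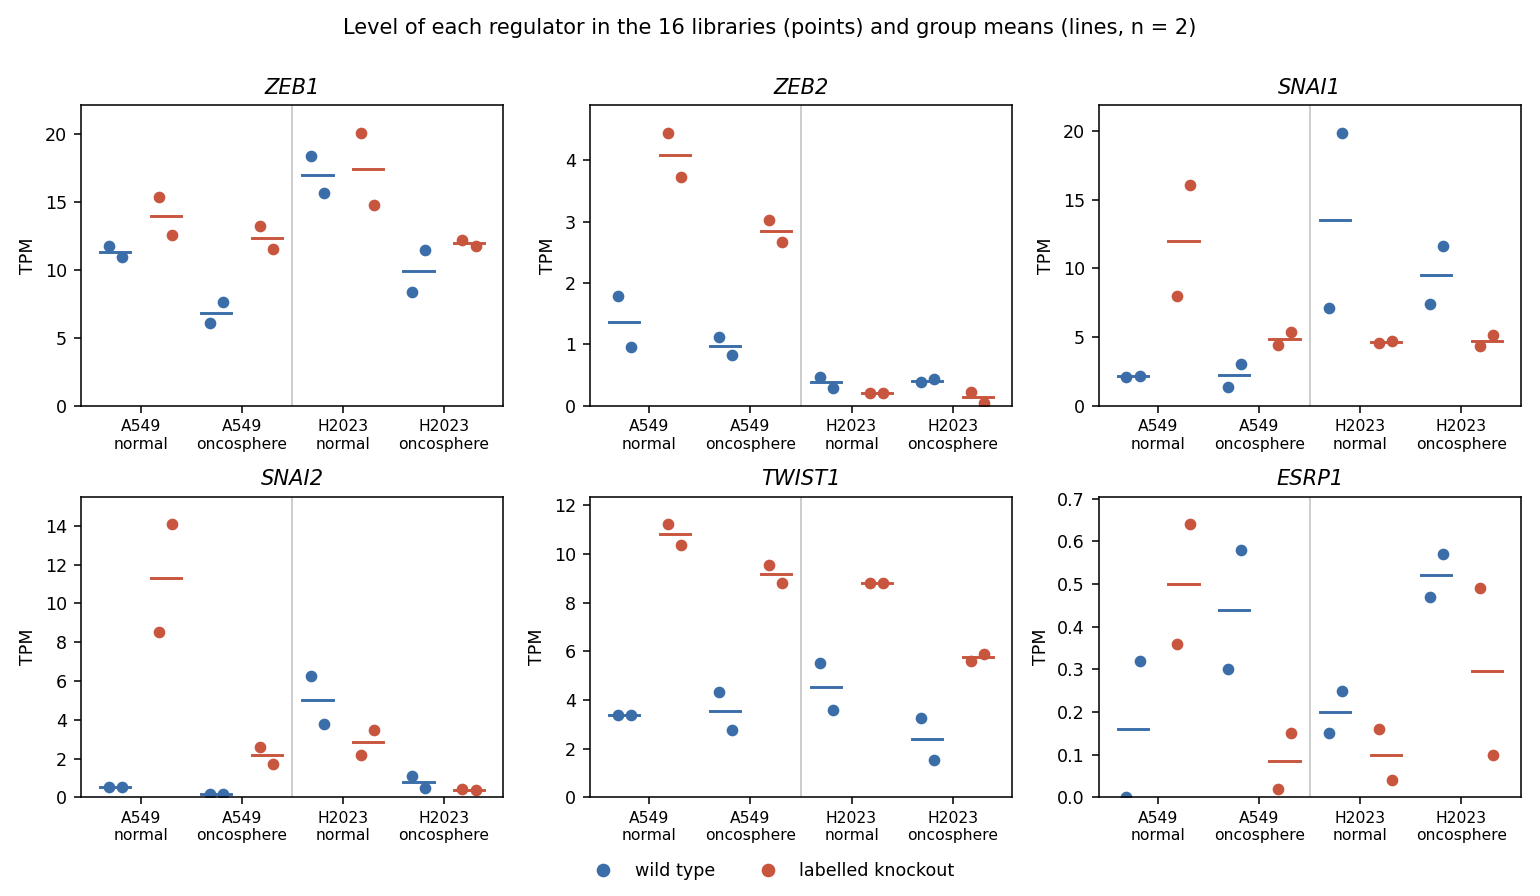
Level in TPM (y axis, from 0, a scale of its own in each panel) of 6 regulators in 16 libraries (points) with the mean of each group of 2 (lines), by line and culture (x axis). In A549 the libraries labelled knockout lie above wild type in both cultures for SNAI2, SNAI1, TWIST1, ZEB2 and ZEB1. In H2023 they lie above it in both cultures for TWIST1 and below it for SNAI1, SNAI2 and ZEB2.

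The order below ZEB1 differed between groups. In wild-type A549 in normal culture it ran ZEB1, TWIST1, SNAI1, ZEB2, SNAI2 and ESRP1, and the libraries of no neighbours in this order overlapped. In the libraries labelled knockout of the same culture ZEB1 (14.0 TPM), SNAI1 (12.04 TPM), SNAI2 (11.31 TPM) and TWIST1 (10.81 TPM) could not be ordered, since the libraries of each overlapped those of the next. Wild-type H2023 had SNAI1 next to ZEB1 in both cultures, with overlapping libraries, then SNAI2 and TWIST1, which overlapped, in normal culture and TWIST1 in oncosphere culture. H2023 labelled knockout had TWIST1 second in both cultures, separate from ZEB1 and from SNAI1.

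The first comparison asked whether the regulators differ between libraries labelled knockout and wild type in A549. In A549 normal culture 4 of the 5 repressors rose, SNAI2 21.5-fold, SNAI1 5.6-fold, TWIST1 3.18-fold and ZEB2 3.0-fold by mean TPM, and ZEB1 and ESRP1 did not pass the test. In A549 oncosphere culture SNAI2 rose 13.1-fold, ZEB2 2.91-fold and TWIST1 2.59-fold. The test was limma on log2(TPM + 1) over all 18227 genes with p-values adjusted by Benjamini-Hochberg and called below 0.05, and on this scale differences of weakly expressed genes come out too small. It called 4 of 6 regulators higher in normal culture, where 4.54% of all genes were called higher and 6.28% lower, and 3 of 6 higher in oncosphere culture, where 6.04% were called higher and 7.20% lower. No regulator was called lower in either.

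SNAI2 stood at 0.52 and 0.53 TPM in the wild-type libraries and at 8.54 and 14.08 TPM under the knockout label in normal culture. The groups were far apart, although the libraries labelled knockout differed widely from each other. The log2 difference was 2.98 (standard error 0.27, adjusted p = 0.00949). In oncosphere culture it stood at 0.17 and 0.16 TPM in wild type and at 2.59 and 1.74 TPM in the clone labelled knockout, lower in both genotypes than in normal culture but again without overlap. The log2 difference there was 1.43 (standard error 0.19, adjusted p = 0.0114). The authors' deposited tables give log2 fold changes of 4.43 and 3.69 for SNAI2.

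SNAI1, the factor first known as a direct repressor of E-cadherin, had 2.12 and 2.18 TPM in wild type and 8.0 and 16.07 TPM under the knockout label in normal culture. Both libraries labelled knockout were above wild type, 1 of them at about the level of ZEB1. The log2 difference was 1.98 (standard error 0.33, adjusted p = 0.0288). Oncosphere culture gave 1.36 and 3.06 TPM in wild type and 4.40 and 5.34 TPM in the clone labelled knockout, where the groups did not overlap but the difference of 0.92 did not pass (adjusted p = 0.118). The authors' deposited tables give 2.51 (adjusted p = 2.78e-09) in normal and 1.08 (adjusted p = 0.0983) in oncosphere culture.

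TWIST1 was at 3.40 TPM in both wild-type libraries and at 11.23 and 10.39 TPM under the knockout label in normal culture, and at 4.34 and 2.77 TPM against 9.57 and 8.83 TPM in oncosphere culture. The groups were separate in both cultures and reached a similar level in each. The log2 differences were 1.42 (standard error 0.17, adjusted p = 0.0148) and 1.18 with a standard error of 0.23 (adjusted p = 0.033).

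ZEB2, which shares its DNA-binding fingers in type with ZEB1, was at 1.78 and 0.95 TPM in wild type and 4.45 and 3.73 TPM in the clone labelled knockout in normal culture. Oncosphere culture gave 1.12 and 0.83 TPM in wild type and 3.02 and 2.66 TPM under the knockout label. Both wild-type groups thus lay near 1 TPM and both groups labelled knockout above 2.6 TPM. The log2 differences were 1.12 (standard error 0.25, adjusted p = 0.0492) and 0.96 with a standard error of 0.18 (adjusted p = 0.0305), and with a pseudocount of 0.1 the first no longer passed (1.57, adjusted p = 0.0632).

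ZEB1 had 11.72 and 10.93 TPM in wild type and 15.39 and 12.60 TPM in the clone labelled knockout in normal culture, a log2 difference of 0.28 (adjusted p = 0.295). Under oncosphere conditions ZEB1 had 6.06 and 7.63 against 13.20 and 11.50 TPM. There the groups stood well apart, 1.8-fold by mean TPM, and the log2 difference of 0.77 with a standard error of 0.19 missed the threshold (adjusted p = 0.0547). The authors' deposited table calls ZEB1 higher in oncosphere culture (log2 fold change 0.87, adjusted p = 6.87e-05), and limma over all 16 libraries did so too (adjusted p = 0.0128). ZEB1-AS1, transcribed next to ZEB1 on the opposite strand, ranged from 2.75 to 5.80 TPM in A549, and whether reads were counted by strand is not given in the sources used here.

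ESRP1 was at 0 and 0.32 TPM in wild type and 0.36 and 0.64 TPM under the knockout label in normal culture, and at 0.30 and 0.58 against 0.02 and 0.15 TPM in oncosphere culture. All these values lie below 1 TPM, and neither difference passed the test (0.38, adjusted p = 0.22, and -0.40, adjusted p = 0.145).

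By the authors' deposited test, 4 regulators were higher in A549 normal culture (SNAI2, SNAI1, ZEB2 and TWIST1), against 11.2% of genes higher and 10.9% lower, and 4 in oncosphere culture (SNAI2, TWIST1, ZEB2 and ZEB1), against 9.29% higher and 11.4% lower. With 1 library left out, 3 libraries leave limma 1 residual degree of freedom. It could then call almost no gene of any kind, so calls in these fits say nothing about the regulators. The log2 difference of SNAI2 in normal culture stayed between 2.65 and 3.31 in them. In fits over all 16 libraries with 1 library of the comparison left out, SNAI1 in normal culture lost its call without replicate 2 labelled knockout (1.51, adjusted p = 0.0781) and TWIST1 in oncosphere culture without wild-type replicate 2 (0.93, adjusted p = 0.052), and SNAI2 and ZEB2 passed in each of these fits.

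**Figure D2:**
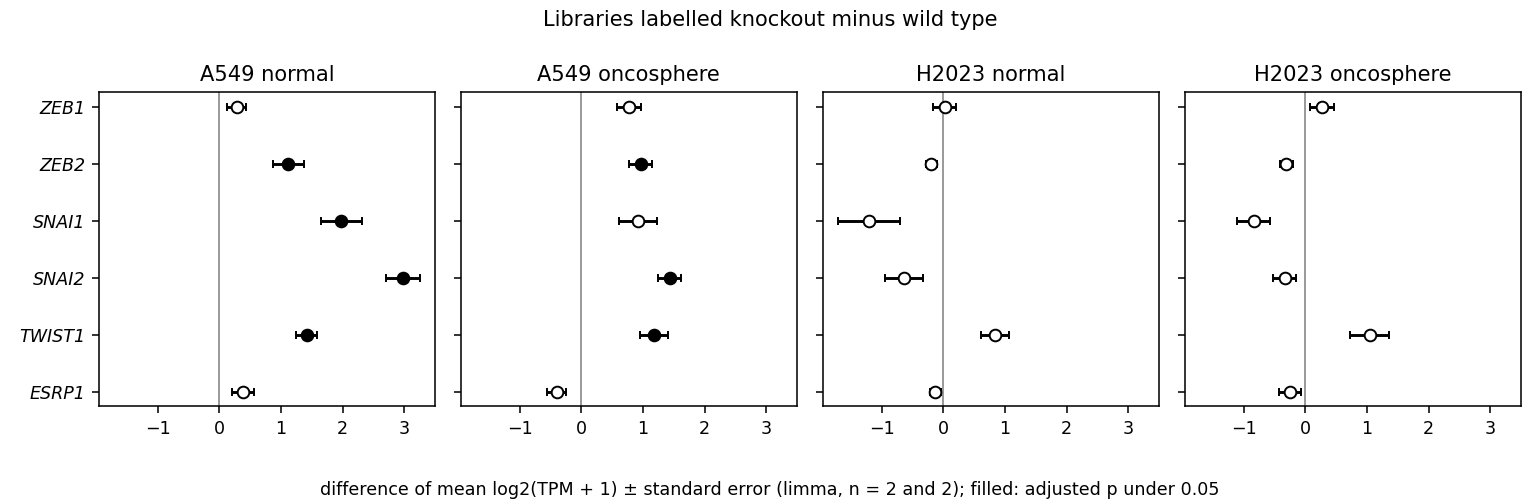
Difference between libraries labelled knockout and wild type (x axis, mean log2(TPM + 1) with its standard error, 2 against 2 libraries) for 6 regulators (y axis) in the 4 line and culture combinations, with filled points where the adjusted p of limma was under 0.05. The 7 filled points are all in A549, from 0.96 for ZEB2 in oncosphere culture to 2.98 for SNAI2 in normal culture.

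The same question in H2023 gave another picture. By limma none of the 6 regulators passed in either culture, and 0 of 18227 genes (0%) did. At an unadjusted p under 0.05 limma had 3314 genes and 1 of the regulators in normal culture, and 2828 genes and 3 of the regulators in oncosphere culture. The authors' deposited test also called 0 regulators in either culture, where it called 3.84% of genes higher and 6.97% lower in normal and 2.22% higher and 2.85% lower in oncosphere culture. The values are therefore given by library.

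SNAI1 was at 7.10 and 19.91 TPM in wild-type H2023 in normal culture and at 4.59 and 4.69 TPM in the clone labelled knockout. In oncosphere culture it was at 7.38 and 11.65 TPM against 4.35 and 5.15 TPM. Wild type was higher in both cultures, with 1 wild-type library in normal culture far above the other. The log2 differences were -1.21 (standard error 0.50, adjusted p = 0.313) and -0.84 (standard error 0.27, adjusted p = 0.297). Without wild-type replicate 1 in normal culture the fit over all 16 libraries gave -1.89 (adjusted p = 0.0333), and without wild-type replicate 2 the difference was -0.52.

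SNAI2 was at 6.26 and 3.79 TPM in wild type and 2.20 and 3.47 TPM under the knockout label in normal culture, and at 1.08 and 0.49 against 0.41 and 0.38 TPM in oncosphere culture. ZEB2 was at 0.47 and 0.29 against 0.20 and 0.20 TPM, and at 0.38 and 0.43 against 0.23 and 0.04 TPM, below 1 TPM throughout this line. TWIST1 was at 5.51 and 3.6 against 8.82 and 8.82 TPM, and at 3.26 and 1.53 against 5.60 and 5.91 TPM. TWIST1 thus stood higher in the libraries labelled knockout in both cultures, as in A549, with log2 differences of 0.84 (adjusted p = 0.214) and 1.04 (adjusted p = 0.282). The second passed in the fit over all 16 libraries (adjusted p = 0.0339), which called 1014 genes in that comparison.

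ZEB1 in H2023 was at 18.35 and 15.66 TPM in wild type and 20.11 and 14.79 TPM in the clone labelled knockout in normal culture, where the groups overlapped. Oncosphere culture gave 8.34 and 11.44 against 12.18 and 11.78 TPM. ESRP1 was at 0.15 and 0.25 against 0.16 and 0.04 TPM, and at 0.47 and 0.57 against 0.49 and 0.10 TPM. Counted by library, normal culture had 1 regulator whose groups did not overlap with the higher one labelled knockout (26.1% of all genes) and 3 with the lower one labelled knockout (24.5%). Oncosphere culture had 2 and 3 (28.6% and 18.9% of all genes).

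Whether the effect of the label differs between lines was tested by subtracting the log2 fold change of A549 from that of H2023, both from the authors' deposited tables, and dividing by the standard error. In normal culture it differed for SNAI2 (-5.24, standard error 0.56, adjusted p = 8.97e-19), SNAI1 (-4.04, standard error 0.81, adjusted p = 1.58e-05) and ZEB2 (-3.28, standard error 0.94, adjusted p = 0.00575), which is 3 of 6 regulators against 15.3% of all genes. In oncosphere culture it differed for SNAI2 (-4.73, standard error 1.05, adjusted p = 0.000182) and SNAI1 (-2.16, standard error 0.60, adjusted p = 0.00452), against 12.9% of all genes. For these regulators the fold change of the authors' deposited tables was above 0 in A549 and below 0 in H2023, where it did not itself pass. With the limma interaction term on TPM the same differences passed, and that of ZEB2 in oncosphere culture did too (-1.27, adjusted p = 0.0141). With 1 of the 8 libraries of a culture left out, that of SNAI2 passed in each fit, in normal culture from -3.95 to -3.29 and in oncosphere culture from -2.01 to -1.52. That of SNAI1 in normal culture did not pass without any 1 of both A549 wild-type libraries, A549 replicate 2 labelled knockout and both H2023 libraries labelled knockout, in oncosphere culture it passed only without A549 wild-type replicate 2 or H2023 wild-type replicate 1, and that of ZEB2 in normal culture passed only without 1 of the A549 wild-type libraries, with ranges of -3.87 to -2.50, -2.15 to -1.37 and -1.58 to -1.07. The effect on TWIST1 was not shown to differ between lines: the difference was -0.45 with a standard error of 0.46 in normal and -0.63 with a standard error of 0.60 in oncosphere culture.

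Between the cultures of a line, 0 of 6 effects differed by the same test, in A549 (8.31% of all genes) and in H2023 (0.390%). The interaction term of limma gave -1.55 for SNAI2 between the A549 cultures (adjusted p = 0.0416), a call that was lost with a replicate block and, with 1 library left out, in every such fit except that without A549 normal knockout replicate 1 (values from -1.88 to -1.22). That is a smaller difference in oncosphere culture on the log2(TPM + 1) scale, where low values are compressed, while the authors' deposited fold changes for SNAI2 differed by -0.75 with a standard error of 0.82.

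The second set of comparisons asked how the regulators change from normal to oncosphere culture within a genotype. SNAI2 fell in 3 of the 4 comparisons and ZEB1 in both wild types. SNAI2 fell by 1.94 on the log2 scale in A549 labelled knockout (from 8.54 and 14.08 to 2.59 and 1.74 TPM, adjusted p = 0.00163), by 1.74 in wild-type H2023 (from 6.26 and 3.79 to 1.08 and 0.49 TPM, adjusted p = 0.00967) and by 1.44 in H2023 labelled knockout (from 2.20 and 3.47 to 0.41 and 0.38 TPM, adjusted p = 0.013). In wild-type A549, where SNAI2 was already near 0.5 TPM, the log2 difference was -0.39 (adjusted p = 0.246), and -1.24 with a pseudocount of 0.1 (adjusted p = 0.0273). The level in oncosphere culture was below that in normal culture in every library pair of all 4 comparisons.

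ZEB1 fell by 0.66 in wild-type A549 (from 11.72 and 10.93 to 6.06 and 7.63 TPM, adjusted p = 0.0168) and by 0.74 in wild-type H2023 (from 18.35 and 15.66 to 8.34 and 11.44 TPM, adjusted p = 0.0487). In the libraries labelled knockout the ZEB1 differences were -0.16 (adjusted p = 0.558) and -0.49 (adjusted p = 0.127). The share of all genes called lower was 21.6% in wild-type A549 and 9.87% in A549 labelled knockout, with 19.0% and 10.9% higher. In H2023 it was 17.4% in wild type and 19.2% labelled knockout, with 3.96% and 7.68% higher. Against these shares, 1 regulator of 6 was called lower in 3 of the comparisons and 2 of 6 in wild-type H2023, and 0 were called higher. The counts called between cultures therefore do not set the regulators apart from other genes. These comparisons use the same libraries as those between genotypes.

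The mitochondrial share of TPM moved with culture. Rescaling TPM without mitochondrial genes shifted the median of all genes by 0.17 in wild-type H2023 and 0.14 in H2023 labelled knockout, and ZEB1 in wild-type H2023 then lost its call (-0.52, adjusted p = 0.15). It also lost it with any 1 of the 8 libraries left out, at values from -0.94 to -0.53. ZEB1 in wild-type A549 lost its call without replicate 1 of either culture (-0.61, adjusted p = 0.0838, and -0.51, adjusted p = 0.0912), and SNAI2 in H2023 labelled knockout without normal replicate 2 (-1.20, adjusted p = 0.0761) and without oncosphere replicate 1 (-1.45) or 2 (-1.42). SNAI2 in A549 labelled knockout and in wild-type H2023 kept its call in each such fit.

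**Figure D3:**
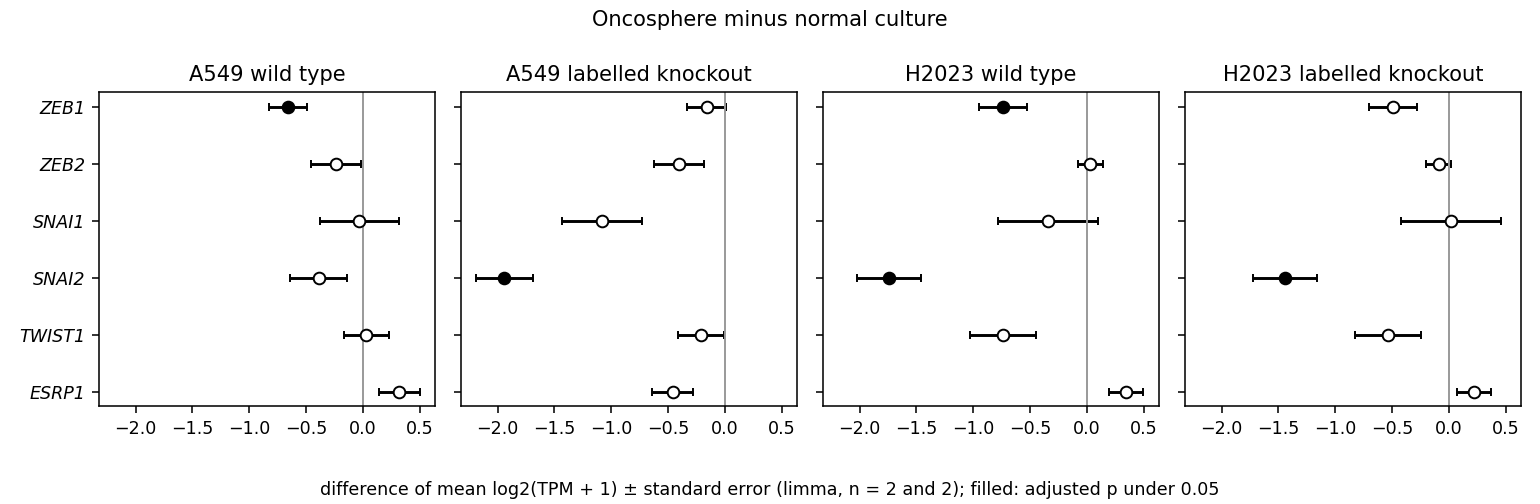
Difference between oncosphere and normal culture (x axis, mean log2(TPM + 1) with its standard error, 2 against 2 libraries) for 6 regulators (y axis) in each line and genotype, with filled points where the adjusted p of limma was under 0.05. SNAI2 has the lowest value in A549 labelled knockout (-1.94) and in both panels of H2023 (-1.74 and -1.44), and ZEB1 is filled in both wild types.

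SNAI1, TWIST1, ZEB2 and ESRP1 did not pass in any culture comparison. SNAI1 in A549 labelled knockout went from 8.0 and 16.07 to 4.40 and 5.34 TPM, a difference of -1.08 that missed the threshold (adjusted p = 0.0627) and passed without normal replicate 1 (-1.54, adjusted p = 0.0365). TWIST1 in wild-type H2023 went from 5.51 and 3.6 to 3.26 and 1.53 TPM (-0.74, adjusted p = 0.121).

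Some of these genes also differed between wild-type H2023 and A549, but so did a large share of all genes. The counts called therefore do not set the regulators apart from other genes. In normal culture SNAI1 (2.05, adjusted p = 0.00206), SNAI2 (1.95, adjusted p = 0.000155) and ZEB1 (0.54, adjusted p = 0.0376) were higher in H2023 and ZEB2 was lower (-0.76, adjusted p = 0.005), which is 4 of 6 against 41.5% of all genes. In oncosphere culture SNAI1 was higher (1.73, adjusted p = 0.00481) and ZEB2 lower (-0.49, adjusted p = 0.0402), 2 of 6 against 47.8% of all genes. With a pseudocount of 0.1 SNAI2 passed there (1.65, adjusted p = 0.00584, against 0.60 and 0.0937 before, and 4.76-fold by mean TPM) and ZEB2 did not (-1.08, adjusted p = 0.0568). By mean TPM SNAI1 was 6.28-fold higher in normal and 4.31-fold higher in oncosphere culture. ZEB1 lost its call with any 1 of the 4 wild-type libraries of normal culture left out (0.44 to 0.65) and when centred on the median (0.42), ZEB2 in normal culture without A549 replicate 1 (-0.50), ZEB2 in oncosphere culture without any 1 of the 4 wild-type libraries of that culture (-0.59 to -0.38) or without either H2023 normal library labelled knockout (adjusted p = 0.0539 for each), and SNAI1 in oncosphere culture without A549 replicate 1 (1.34).

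Genes whose profile over the 8 group means lay closest to a regulator were found by the root-mean-square difference of centred log2(TPM + 1) values among 14789 genes. For ZEB1 they were PPP6R1 (0.07), CHST10 (0.07) and BMPR1A (0.11), with a range of 1.23 for ZEB1 itself. TWIST1, with a range of 1.85, was nearest to EPHA4 (0.16), an ephrin receptor, PTPRE (0.27) and HOXA4 (0.28). ZEB2 was nearest to FHDC1 (0.17), COA5 (0.19) and EDIL3-DT (0.19), with a range of 2.17. SNAI1, with a range of 2.07, was nearest to ITGAV (0.28), the integrin alpha V chain, KITLG (0.29) and SHISAL1 (0.31). SNAI2 had looser neighbours in ALX4 (0.33), MPP1 (0.47) and ARSI (0.50), for a range of 3.36. The nearest 3 of each are a description over 8 points that share their libraries.

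The genes around the regulators were taken from lists, starting with their targets. Of 30 epithelial genes listed as repressed by ZEB, SNAI or TWIST proteins, 27 had a row. In A549 libraries labelled knockout 6 of the 27 fell and 0 rose in normal culture, against 6.28% of all genes lower and 4.54% higher, and 15 fell and 1 rose in oncosphere culture, against 7.20% lower and 6.04% higher. The median log2 difference of the list was -0.58 and -1.10, against -0.03 and 0.03 over all genes. By the authors' deposited test 14 fell and 3 rose in normal culture, against 10.9% of all genes lower and 11.2% higher. In oncosphere culture 21 fell and 1 rose by that test, against 11.4% lower and 9.29% higher.

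CLDN7, whose promoter is shown above with 5 boxes, had 0.87 and 0.93 TPM in wild type and 0.14 and 0.43 TPM under the knockout label in A549 normal culture. Oncosphere culture gave 16.38 and 9.72 against 0.18 and 0.12 TPM, and fell by 3.57 on the log2 scale (standard error 0.28, adjusted p = 0.00384). CRB3, named after its values were seen because its promoter is shown, had 7.63 and 3.13 against 0.95 and 1.03 TPM, and 15.21 and 14.71 against 4.04 and 3.63 TPM. In H2023, over both genotypes and cultures, both stayed within a range that was narrower by fold. CLDN7 ranged from 6.17 to 23.24 TPM and CRB3 from 10.26 to 17.02 TPM.

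KRT19, a simple-epithelium keratin, went from 6.11 and 8.33 to 0.67 and 0.29 TPM in A549 normal culture (-2.47, adjusted p = 0.0108) and from 46.81 and 101.25 to 3.29 and 5.92 TPM in oncosphere culture (-3.68, adjusted p = 0.00819). KRT18, the partner of keratin KRT8, went from 3749.07 and 3994.96 to 1242.43 and 665.75 TPM in normal culture (-2.09, adjusted p = 0.023). CDH1 itself, E-cadherin, stood at 34.67 and 52.12 against 20.62 and 17.69 TPM in normal culture and at 73.10 and 62.42 against 84.49 and 79.02 TPM in oncosphere culture, so that the libraries labelled knockout were lower in one culture and higher in the other.

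Of 26 mesenchymal genes with a row, 11 rose and 0 fell in A549 normal culture, against 4.54% of all genes higher and 6.28% lower, and 10 rose and 3 fell in A549 oncosphere culture, against 6.04% higher and 7.20% lower. The medians were 0.61 and 0.50, and 15 and 13 genes did not pass. By the authors' deposited test 16 were higher and 0 lower in normal and 12 higher and 5 lower in oncosphere culture, against 11.2% and 10.9% of all genes in normal and 9.29% and 11.4% in oncosphere culture. MMP2, a gelatinase that cuts basement membrane, went from 3.91 and 3.03 to 113.36 and 113.67 TPM (4.69, adjusted p = 0.00151) and from 3.23 and 6.01 to 219.76 and 263.48 TPM (5.47, adjusted p = 0.00194). COL5A1, a fibrillar collagen chain, went from 3.14 and 2.45 to 48.00 and 43.46 TPM in normal culture (3.63, adjusted p = 0.0031). SPARC, a secreted matrix glycoprotein, went from 0.07 and 0.36 to 24.06 and 17.99 TPM in oncosphere culture (4.18, adjusted p = 0.00248).

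The summed level of the 6 epithelial markers, of which 4 (EPCAM, CDH1, KRT18 and KRT19) are also in the epithelial list, was lower under the knockout label in A549 normal culture and overlapped between genotypes in A549 oncosphere culture. It was 9346 and 9175 TPM in wild type and 5009 and 2571 TPM in the clone labelled knockout in A549 normal culture, and 6666 and 7544 against 5659 and 7825 TPM in oncosphere culture. In H2023 it was 9397 and 8749 against 13032 and 12326 TPM, and 4327 and 4565 against 7766 and 8273 TPM, higher under the knockout label in both cultures. The 4 measured fibroblast markers summed to 3.08 and 3.44 against 3.77 and 4.70 TPM, and to 6.18 and 5.62 against 3.5 and 1.60 TPM. The 3 measured immune markers summed to 58.92 and 45.49 against 48.02 and 35.31 TPM in A549 normal culture, where the groups overlapped, and to 245.06 and 151.05 against 79.11 and 58.63 TPM in A549 oncosphere culture, where they did not. The 1 measured endothelial marker, PECAM1, was at 0.04 and 0.10 against 0.01 and 0 TPM, and at 2.76 and 1.77 against 0.63 and 0.81 TPM. The part of these markers in the results was not tested. In such bulk samples, fewer cells of a type and less RNA per cell cannot be told apart.

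**Figure D4:**
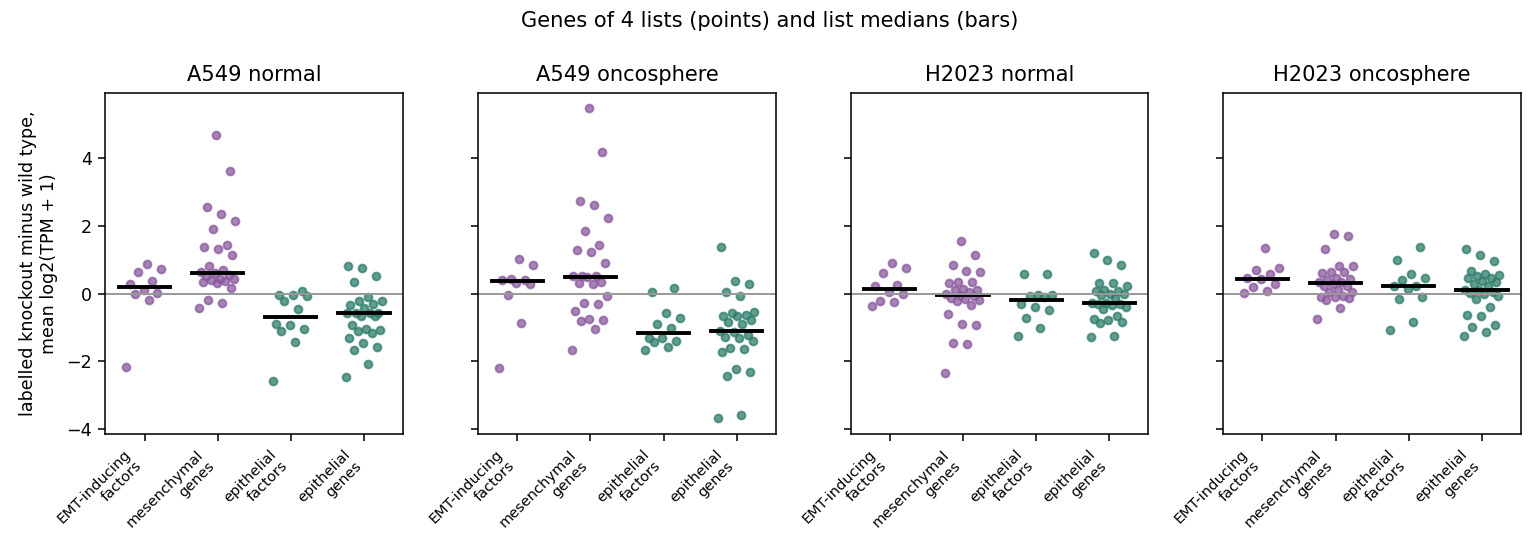
Difference between libraries labelled knockout and wild type (y axis, mean log2(TPM + 1)) for the genes (points) of 4 lists (x axis), with list medians (bars), in each line and culture. In A549 the mesenchymal genes have medians of 0.61 and 0.50 and the epithelial genes -0.58 and -1.10, while in H2023 the 4 lists have medians between -0.26 and 0.44.

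Among the other epithelial-maintaining transcription factors, 4 of 12 with a row fell in A549 normal culture and 7 fell in oncosphere culture, and 0 rose in either. Of all genes, 6.28% were lower and 4.54% higher in normal culture, and 7.20% lower and 6.04% higher in oncosphere culture. ELF3, an ETS factor of epithelia, went from 116.90 and 193.01 to 24.64 and 23.79 TPM (-2.58, adjusted p = 0.00949) and from 311.50 and 263.23 to 101.65 and 90.74 TPM (-1.57, adjusted p = 0.00404). KLF4 went from 10.19 and 6.18 to 2.14 and 2.59 TPM in oncosphere culture (-1.42, adjusted p = 0.0309), and passed in none of the 16-library fits with 1 library of the comparison left out (adjusted p = 0.06 to 0.257).

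The other transcription factors that induce the transition did not move one way. Of 10 with a row, 1 rose and 1 fell in A549 normal culture, against 4.54% of all genes higher and 6.28% lower. In oncosphere culture 2 rose and 1 fell, against 6.04% higher and 7.20% lower. TWIST2, a relative of TWIST1, rose from 5.99 and 4.71 to 10.50 and 10.48 TPM (0.86, adjusted p = 0.0467) in normal culture. TCF4, an E-protein partner of TWIST factors, rose from 1.53 and 1.02 to 4.11 and 3.14 TPM (1.02, adjusted p = 0.0413) in oncosphere culture, and passed in none of the 16-library fits with 1 library of the comparison left out (adjusted p = 0.156 to 0.288). HMGA2, a chromatin protein known to induce SNAI1 and TWIST1, fell in both, from 23.83 and 10.26 to 3.12 and 2.42 TPM (-2.16, adjusted p = 0.0343) and from 6.77 and 5.43 to 0.59 and 0.47 TPM (-2.21, adjusted p = 0.00496).

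TGF-beta, a signal that induces SNAI and ZEB genes, was represented by 13 genes, of which 3 rose in A549 normal and 5 in oncosphere culture and 0 fell. Of all genes, 4.54% rose and 6.28% fell in normal culture, and 6.04% rose and 7.20% fell in oncosphere culture. The ligand TGFB2 went from 24.42 and 29.13 to 64.52 and 60.63 TPM (1.20, adjusted p = 0.0113) and from 10.74 and 16.88 to 48.81 and 50.07 TPM (1.80, adjusted p = 0.00969). TGFB1 went from 59.81 and 60.28 to 120.76 and 119.44 TPM in normal culture (0.99, adjusted p = 0.00829), and the co-receptor TGFBR3 from 6.98 and 4.46 to 13.27 and 13.81 TPM in oncosphere culture (1.14, adjusted p = 0.0345). The TGFBR3 call was lost in 3 of 4 16-library fits with 1 library of the comparison left out (adjusted p = 0.0331 to 0.156).

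Splicing regulators other than the ESRP proteins numbered 19 with a row. In A549 libraries labelled knockout 5 fell in normal culture, against 6.28% of all genes, and 1 in oncosphere culture, against 7.20%, and 0 rose by limma over the 4 libraries. In normal culture the authors' deposited test called 2 higher and 4 lower, and limma over all 16 libraries 2 higher and 5 lower. In oncosphere culture that 16-library fit called 2 higher and 1 lower. Of all genes, the deposited test called 11.2% higher and 10.9% lower in normal culture. The 16-library fit called 1334 higher and 1899 lower of 18227 genes in normal culture, and 1859 higher and 1921 lower in oncosphere culture. RBFOX3, a neuronal splicing factor, went from 6.4 and 13.58 to 1.54 and 0.85 TPM (-2.26, adjusted p = 0.0281) and from 37.04 and 28.29 to 9.73 and 9.48 TPM (-1.65, adjusted p = 0.00636). RBM24 went from 18.14 and 24.12 to 9.12 and 6.46 TPM in normal culture (-1.34, adjusted p = 0.0283). Of 15 genes with exons set by ESRP proteins, limma called 1 lower in normal culture, against 6.28% of all genes, and 1 higher in oncosphere culture, against 6.04%. These counts are near the background. The authors' deposited test called 3 higher and 3 lower in normal and 3 higher and 2 lower in oncosphere culture, where it called 9.29% of all genes higher and 11.4% lower. FGFR2 fell from 2.19 and 2.93 to 0.31 and 0.56 TPM in normal culture (-1.31, adjusted p = 0.0216). ENAH, an actin regulator, rose from 42.59 and 40.44 to 73.70 and 75.74 TPM in oncosphere culture (0.83, adjusted p = 0.00925). These are gene totals, and exon use was not analysed here.

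Corepressors recruited by ZEB and SNAI proteins had 1 gene higher and 2 lower of 19 in A549 normal culture and 1 higher in oncosphere culture, against 4.54% of all genes higher and 6.28% lower in the first and 6.04% higher in the second, so these counts are near the background. HDAC2, a histone deacetylase, rose from 59.62 and 67.22 to 95.47 and 93.37 TPM in oncosphere culture (0.57, adjusted p = 0.0282). Among 19 regulators of the stability of SNAI, ZEB and TWIST proteins, 1 fell in normal culture, against 6.28% of all genes. In oncosphere culture 1 rose and 2 fell, against 6.04% higher and 7.20% lower, so these counts are also near the background. PAK1, a kinase that phosphorylates SNAI1, fell from 27.07 and 30.33 to 16.76 and 16.72 TPM (-0.74, adjusted p = 0.0222). In the 16-library fits with 1 library left out the PAK1 call was lost without oncosphere wild-type replicate 2 (adjusted p = 0.0539).

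In H2023 none of these list genes passed with limma over the 4 libraries of a culture, and the counts are from the authors' deposited test. Over all 16 libraries limma called 2 epithelial genes lower and 2 mesenchymal genes higher and 2 lower in normal culture, and 3 epithelial genes higher and 2 lower, 2 mesenchymal genes higher and 4 TGF-beta genes higher in oncosphere culture. That fit called 187 higher and 359 lower of 18227 genes in normal culture, and 577 higher and 437 lower in oncosphere culture. In normal culture, where the authors' deposited test called 3.84% of all genes higher and 6.97% lower, 5 of 27 epithelial genes were lower and 2 higher, 3 of 24 mesenchymal genes with an adjusted p higher and 3 lower, and 4 of 10 epithelial factors lower and 2 higher. FN1, fibronectin, went from 80.80 and 78.77 to 13.28 and 16.64 TPM under the knockout label (log2 fold change -2.58 and adjusted p = 7.31e-82 in the authors' deposited table), while in A549 normal culture it was at 63.71 and 78.52 against 121.80 and 99.82 TPM. In oncosphere culture, against 2.22% higher and 2.85% lower, 3 of 27 epithelial genes were lower and 2 higher, and 4 of 24 mesenchymal genes higher and 1 lower. Of 9 other transcription factors that induce the transition with an adjusted p, 3 were higher and 0 lower in oncosphere culture. In normal culture 1 of 9 was higher and 0 lower. Limma over all 16 libraries called 2 of these factors higher in oncosphere and 1 in normal culture. SOX9, an SRY-related factor of that list, went from 30.52 and 22.70 to 67.40 and 69.09 TPM in oncosphere culture (1.27, adjusted p = 2.88e-07 in the authors' deposited table).

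From normal to oncosphere culture, epithelial genes rose in A549, 20 of 27 with 0 lower in wild type and 11 with 1 lower in the libraries labelled knockout. In H2023 3 rose and 1 fell in wild type, and 7 rose and 2 fell in the libraries labelled knockout. Of all genes, 19.0% rose and 21.6% fell in wild-type A549, and 10.9% rose and 9.87% fell in A549 labelled knockout. In H2023 3.96% rose and 17.4% fell in wild type, and 7.68% rose and 19.2% fell in the libraries labelled knockout. Of the 12 other epithelial-maintaining factors, 8 rose and 1 fell in wild-type A549, and 5 rose and 0 fell in A549 labelled knockout. In H2023 1 rose and 0 fell in wild type, and 2 rose and 0 fell in the libraries labelled knockout. EHF, an epithelial ETS factor of that list, rose in all 4 comparisons, in wild-type A549 from 1.61 and 3.83 to 49.43 and 35.37 TPM (3.59, adjusted p = 0.000102). Against the same shares of all genes, mesenchymal genes were mixed, with 8 of 26 higher and 7 lower in wild-type A549 and 4 higher and 11 lower in A549 labelled knockout. In wild-type H2023 0 were higher and 7 lower, and in H2023 labelled knockout 4 were higher and 4 lower. FN1 rose in both genotypes of A549 (2.61 and 2.87, adjusted p = 6.88e-05 and 0.000189) and in H2023 labelled knockout (3.13, adjusted p = 0.00375). The receptor kinase AXL fell in A549 labelled knockout and in both genotypes of H2023, in H2023 labelled knockout from 156.13 and 138.58 to 22.72 and 20.01 TPM (-2.73, adjusted p = 0.000268). The 10 other transcription factors that induce the transition moved both ways against the same shares. In A549 1 rose and 4 fell in wild type, and 2 rose and 2 fell in the libraries labelled knockout. In H2023 2 rose and 3 fell in wild type, and 4 rose and 3 fell in the libraries labelled knockout. SNAI3, a SNAI gene of that list, rose in H2023 from 0.12 and 0.18 to 4.08 and 4.93 TPM in wild type (2.26, adjusted p = 0.00185) and from 0.37 and 0.04 to 6.07 and 6.64 TPM in the clone labelled knockout (2.62, adjusted p = 0.000541).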

How the data were processed

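RNA was extracted with a ReliaPrep kit and made into stranded TruSeq mRNA libraries, per the labels' protocols. HISAT2, StringTie and GRCh38 are named in the submitters' processing notes, and versions and the counting setting for strand are not given in the sources used here. Each of 4 deposited tables held TPM for 2 wild-type libraries and 2 libraries labelled knockout of 1 line and culture. The authors' deposited columns also held the mean normalized count per gene (a signal scaled by the authors), a log2 fold change with its standard error, a test score whose sign is opposite to that of the log2 fold change, and p-values raw and adjusted. The raw counts were not used here, so depth is unknown and TPM were tested on a log scale.

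TPM were taken as log2(TPM + 1) and tested with limma 3.58.1 in R 4.3.3 with a mean-dependent variance trend, over 18227 genes with Benjamini-Hochberg adjustment at 0.05. Genotypes were compared over the 4 libraries of a table, cultures over the 8 libraries of a line, and lines over all 16. Differences of genotype effects used a two-sided z-test on the authors' deposited log2 fold changes. Scripts were tested on simulated data. Alternatives were a pseudocount of 0.1, a mean of at least 1 TPM, TPM rescaled without 15 mitochondrial genes, centring on the median, all 16 libraries together, a replicate block and each library left out.

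Named list genes were the 2 of each list with the largest absolute change among those called in a comparison (in H2023 genotype comparisons by the deposited test), and some of these are given; CRB3, CDH1 and FN1 in A549 were added after their values were seen. Members and lists were chosen with earlier results of these data known. GRHL2, OVOL1 and ESRP2 were not analysed here.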

Additional observations from a re-analysis of the deposited data

Results flagged for a closer look

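Effects of the knockout label that differed between lines stood out for 3 regulators. In normal culture the log2 fold change in H2023 minus that in A549, from the authors' deposited tables, was -5.24 for SNAI2, -4.04 for SNAI1 and -3.28 for ZEB2. In oncosphere culture it was -4.73 for SNAI2 and -2.16 for SNAI1. Each difference was tested itself, with adjusted p = 8.97e-19, 1.58e-05, 0.00575, 0.000182 and 0.00452 by the z-test, and each line is represented by 1 clone labelled knockout.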

How the results depend on the processing

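Of 447 values of single regulators under settings that kept all libraries, 414 kept their direction and side of the threshold, 8 lost a call, 15 gained one and 10, none of them called, changed sign. With 1 library left out, 637 of 768 values did so, 72 lost a call, 16 gained one and 43 changed sign. Of the values of named list genes, 1341 of 1568 kept their side with 1 library left out, 204 lost a call and 23 gained one, and under other settings 954 of 1009 did, 14 lost a call and 41 gained one. The lost calls include those of the 3-library fits between genotypes, which could call almost no gene of any kind. Where no cause is named, the cause was not tested. The number of regulators called between genotypes was 4 and 3 in A549 normal and oncosphere culture and 0 in both H2023 cultures. The 3-library fits, with 1 residual degree of freedom, could not test this number, since they called almost no gene of any kind. The fits over 16 libraries with 1 left out were chosen after seeing the data. All 16 libraries together called 1 in H2023 oncosphere culture. Between cultures, 2 were called in wild-type A549 with a pseudocount of 0.1 (main 1), 2 in A549 labelled knockout with a mean of at least 1 TPM (main 1), and 1 in wild-type H2023 when rescaled without mitochondrial genes or centred (main 2). With a library left out these counts ranged from 0 to 1 in wild-type A549, from 1 to 2 in A549 labelled knockout, from 1 to 2 in wild-type H2023 and from 0 to 1 in H2023 labelled knockout. Between lines, 1 was called in oncosphere culture with a mean of at least 1 TPM and in a fit of only the 4 wild-type libraries (main 2), and left-out libraries gave 2 to 4 in normal and 0 to 3 in oncosphere culture. For differences of genotype effects, the interaction term called 1 between the A549 cultures (main 0). A deposited mean count of at least 100 left 0 called between lines in oncosphere culture (main 2). That setting removed SNAI2 and SNAI1, at 36.2 and 82.4 in A549 oncosphere culture, so they were not tested under it. Between lines in normal culture it removed ZEB2, at 15.6 in H2023, so the difference of ZEB2 was not tested under it either. Left-out libraries gave 0 to 1 between the A549 cultures, 1 to 2 between lines in normal and 1 to 3 in oncosphere culture.

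The labels do not say that replicate numbers mark a shared batch, and only 2 numbers exist. Deviations of same-numbered libraries correlated across genes with r from 0.027 to 0.461 between genotypes and from 0.096 to 0.162 between cultures. With a replicate block, 3 regulators were called between cultures in A549 labelled knockout (main 1), where SNAI1 (adjusted p = 0.0259) and ESRP1 (0.0365) were added to SNAI2, and 1 in wild-type H2023 (main 2). For the interaction between the A549 cultures 1 was called, ESRP1 (-0.78, adjusted p = 0.0441) in place of SNAI2, and the other counts stayed within 1.5 times. In the interaction with the replicate block the values were -0.24 for TWIST1 between the A549 cultures, 0.31 for SNAI2 between the H2023 cultures and 0.16 for ESRP1 between lines in oncosphere culture, the same as without it and opposite in sign to the differences of deposited fold changes.

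Other uncalled values changed sign. Rescaling gave 0.07 for SNAI1 between cultures in wild-type A549. Centring gave 0.03 for ZEB2 between cultures in H2023 labelled knockout, -0.06 for ESRP1 between lines in normal culture and 0.01 for ZEB2 between the A549 cultures. With a library left out, ZEB1 between genotypes in H2023 normal culture ranged from -0.19 to 0.23. Between cultures in wild-type A549, ZEB2 ranged from -0.50 to 0.01, SNAI1 from -0.42 to 0.37 and TWIST1 from -0.22 to 0.28. In wild-type H2023, ZEB2 ranged from -0.07 to 0.12 and SNAI1 from -1.02 to 0.35, and in H2023 labelled knockout ZEB2 from -0.21 to 0.04 and SNAI1 from -0.08 to 0.12. ESRP1 between lines ranged from -0.14 to 0.26 in normal and from -0.06 to 0.22 in oncosphere culture. For the differences of genotype effects, ZEB2 ranged from -0.42 to 0.09 and TWIST1 from -0.49 to 0.01 between the A549 cultures. Between the H2023 cultures ZEB2 ranged from -0.24 to 0.01, SNAI1 from -0.32 to 1.05, SNAI2 from 0.01 to 0.61, TWIST1 from -0.18 to 0.57 and ESRP1 from -0.34 to 0.10. Between lines in oncosphere culture TWIST1 ranged from -0.52 to 0.23 and ESRP1 from -0.06 to 0.38. Depth is not kept in TPM, so values below 1 TPM carry no counting interval.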
